A study of Mus musculus with 321 samples.

Results

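Of the 40562 places in the genome where Tcf-1 bound after it was put into NIH3T3 fibroblasts, 1804 lay in chromatin that carries the repressive mark H3K27me3 in NIH3T3 cells. These 1804 summits (the single bases of highest signal) are the subject here and are called members. A summit was a member if H3K27me3 islands of both replicates covered it and H3K9me3 islands of both replicates did not. The summits in neither mark numbered 36051, those in H3K9me3 islands only numbered 2617, and 90 in both marks were set aside. Members were thus chosen by the measured islands of both marks and by the Tcf-1 summits, so neither mark nor binding is a finding, while open chromatin was measured in other libraries that the choice did not use. The study asked how Tcf-1 relates to open and repressed chromatin. The assay of open chromatin was ATAC-seq, in which a transposase cuts accessible DNA, run on 4 libraries of NIH3T3 with an empty retrovirus (Empty RV) and 4 with a retrovirus carrying Tcf-1 (Tcf-1 RV). It was also mapped in CD4+CD8+ double-positive (DP) thymocytes purified by FACS from mice, with 2 libraries of genotype C56BL/6 (WT) and 2 of TCF-1-/- deltaVII (KO). NIH3T3 is an established mouse embryonic fibroblast line, given as NIH/Swiss at passages 8-12 in all of its libraries. H3K27me3 and H3K9me3 islands came from 2 NIH3T3 libraries each with no virus named in their labels. The Tcf-1 summits came as 1 pooled list of Tcf-1 RV cells. All summits were thus picked in cells of 1 of the groups compared. The choice is therefore not independent of the comparison of Tcf-1 RV with Empty RV.

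Tcf-1, the product of Tcf7, is a DNA-binding protein with an HMG box that reads sequences of the type CTTTGA, and in the thymus it is needed for early T cell development. It can pair with beta-catenin as an effector of Wnt signals. H3K27me3 is laid down by Polycomb repressive complex PRC2 and marks silent developmental genes, such as Hox genes, in cells that do not use them. H3K9me3 marks another kind of silent chromatin, often over repeats and zinc finger gene clusters.

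Sequence was at hand only around gene starts. Of the 1787 members on the chromosomes with such sequence, 14 (0.783%) lay in a RefSeq promoter window (GRCm38.p6, 250 bases before to 50 after a start). The share was 4.10% for summits in neither mark and 0.815% for those in H3K9me3 islands. Of the 14, 12 (85.7%) had CTTTGA or CTTTGT on either strand in a window, and 9 (64.3%) had one within 50 bases of the summit. Among summits in neither mark that lay in a window the shares were 34.9% and 17%, and 31.2% of all 32851 windows held either motif. The 2 motifs share all letters but the last, and a match is a description of letters only. The stretches below show the 50 bases on each side of the summit, cut at the gene start, on the strand of the gene and 5′ to 3′, with either motif, read on either strand, in capitals. The first 5 hold a motif close to the summit, and the last holds none although a peak covered it in 7 of the 8 NIH3T3 libraries.
Lhx4, chr1:155742028-155742098, minus strand: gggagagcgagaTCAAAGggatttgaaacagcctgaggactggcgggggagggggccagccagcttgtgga
Gm52671, chr4:106293141-106293220, minus strand: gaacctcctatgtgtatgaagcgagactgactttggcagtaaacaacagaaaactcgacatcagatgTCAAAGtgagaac
Bpifb5, chr2:154223623-154223723, plus strand: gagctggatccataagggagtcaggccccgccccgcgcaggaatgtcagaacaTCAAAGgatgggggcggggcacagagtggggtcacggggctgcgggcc
Gm11695, chr11:115463699-115463777, minus strand: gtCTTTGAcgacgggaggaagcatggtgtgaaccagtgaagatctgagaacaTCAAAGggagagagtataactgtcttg
Gm33448, chr6:100181048-100181148, minus strand: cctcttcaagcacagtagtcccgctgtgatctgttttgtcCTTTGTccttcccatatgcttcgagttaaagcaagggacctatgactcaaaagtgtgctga
Gm36090, chr2:164549441-164549541, minus strand: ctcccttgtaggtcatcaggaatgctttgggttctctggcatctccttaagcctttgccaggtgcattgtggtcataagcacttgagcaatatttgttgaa

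Lhx4, a LIM homeobox transcription factor gene, had its summit 21 bp before the start with a score of 26.6, and no ATAC library of either cell type had a peak there. The Gm52671 summit, at a long non-coding RNA gene, scored 93.1 and was under a peak in 3 of 4 Tcf-1 RV and 0 of 4 Empty RV libraries. At Bpifb5 no library had a peak. The Gm11695 summit was under a peak in 1 DP WT library only, and the Gm33448 summit in 1 Tcf-1 RV library.

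Members were rarely open in Empty RV fibroblasts and were open more often in Tcf-1 RV fibroblasts. A peak covered 10 members (0.554%), 23 (1.27%), 51 (2.83%) and 83 (4.60%) in Empty RV replicates 1 to 4. In Tcf-1 RV replicates 1 to 4 it covered 312 (17.3%), 237 (13.1%), 90 (4.99%) and 290 (16.1%). The arms did not overlap, but Tcf-1 RV replicate 3 lay only just above the highest Empty RV library. The means were 2.31% ± 1.80 and 12.9% ± 5.54 (SD, n = 4 each), a difference of 10.6 percentage points and a ratio of 5.56. The exact two-sided permutation test over libraries gave p = 0.0286, the smallest that 4 against 4 allows, and 0.0429 after Benjamini-Hochberg adjustment over 6 tests. Summits in neither mark went from 27.2% ± 7.64 to 40.9% ± 6.97, a ratio of 1.5 with overlapping arms (exact permutation p = 0.0571, unadjusted). Summits in H3K9me3 islands went from 24% ± 7.01 to 37.2% ± 6.94, a ratio of 1.55 (exact permutation p = 0.0571, unadjusted).

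**Figure D1:**
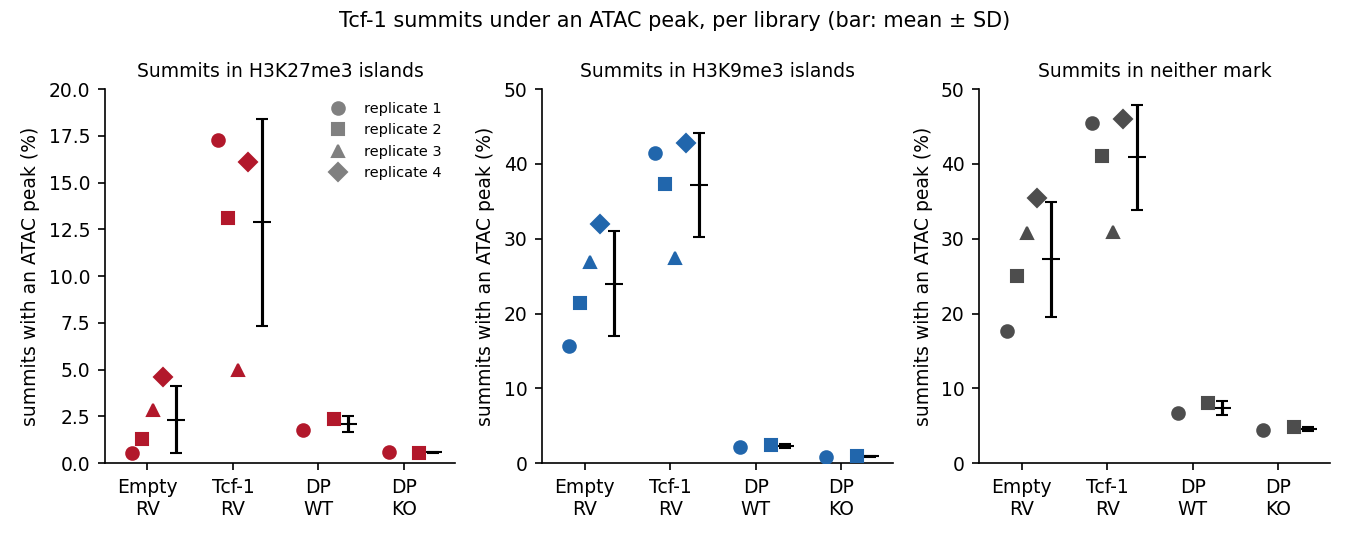
Percent of Tcf-1 summits covered by an ATAC-seq peak (vertical axis; its range differs between panels) in each library of Empty RV and Tcf-1 RV NIH3T3 and of WT and KO DP thymocytes (horizontal axis), for summits in H3K27me3 islands, in H3K9me3 islands and in neither mark. Each symbol is 1 library and the bar is the mean ± SD; in H3K27me3 islands the Tcf-1 RV libraries lie at 4.99% to 17.3% and the Empty RV libraries at 0.554% to 4.60%.

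On the odds scale the gap between members and unmarked summits was narrower in Tcf-1 RV than in Empty RV but did not close. In percentage points it did not narrow, since the arms differed by 13.6 points for unmarked summits and by 10.6 for members. The log2 odds ratio of a peak, members against summits in neither mark, was -5.20, -4.66, -3.92 and -3.50 in Empty RV replicates 1 to 4 and -1.99, -2.20, -3.09 and -2.15 in Tcf-1 RV. Its mean moved from -4.32 ± 0.76 to -2.36 ± 0.49, a difference of 1.96 on the log2 scale or 3.90-fold in odds (exact permutation p = 0.0286, adjusted 0.0429, n = 4 each). Against summits in H3K9me3 islands the difference was 1.94 on the log2 scale, with the same p-values. With odds ratios combined over score quartiles, an alternative chosen after seeing the data, the difference from summits in neither mark was 1.95 on the log2 scale. Among summits that had no peak in any Empty RV library, however, the share that opened was lower for members than for unmarked summits in each Tcf-1 RV library. The shares of such members with a peak were 14.5%, 9.88%, 2.16% and 11.9% in Tcf-1 RV replicates 1 to 4, against 21.2%, 14.9%, 4.10% and 17.1% of such unmarked summits. The log2 odds ratios were -0.67, -0.67, -0.94 and -0.61, so the sign was the same in 4 of 4 libraries.

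The length of the peak lists moved with these shares. Empty RV replicate 1 had the shortest NIH3T3 list (22778 peaks) and the fewest open members, and the longest lists were those of replicate 4 in both arms (58026 and 62639 peaks). Per 10000 peaks of a library, members with a peak numbered 4.39, 6.65, 10.9 and 14.3 in Empty RV and 65.5, 54.4, 24.6 and 46.3 in Tcf-1 RV replicates 1 to 4. The means of 9.06 ± 4.42 and 47.7 ± 17.3 differed by 38.7 (exact permutation p = 0.0286, adjusted 0.0429, n = 4 each). With lists cut to an equal number, keeping the widest peaks, the shares were 0.762% and 4.27%, a smaller difference of 3.51 points at the same p. Tags in the file names, which the labels do not repeat, give day 2 for replicates 1 and 2 but day 4 for the other two. The difference was 14.3 points within day 2 and 6.82 points within day 4, each with 2 libraries per arm, which cannot give an exact permutation p below 0.333. The label of the pooled Tcf-1 list carries a day 2 tag. The call of the share did not survive leaving out any 1 library other than Tcf-1 RV replicate 3, with adjusted p of 0.0571 or 0.0857 in those 7 cases, while the difference stayed between 9.09 and 13.2 points over the 8 leave-outs. When a peak within 250 bp of the summit counted as open, it was 11.2 points with an adjusted p of 0.0857.

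Most members had no peak in any NIH3T3 library. Of the 1804, 1361 (75.4%) were never open there, against 44.8% of summits in neither mark. A further 350 (19.4%) had a peak in 1 to 4 Tcf-1 RV and no Empty RV library, against 18.1% of all summits. Of these, 167 had it in 1 library, 87 in 2, 68 in 3 and 28 in all 4. The opposite pattern, a peak in some Empty RV and no Tcf-1 RV library, was found at 4 members, where all summits gave 0.821%. Members in a peak in all 8 libraries numbered 9 (0.499%), against 15.9% of summits in neither mark.

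**Figure D2:**
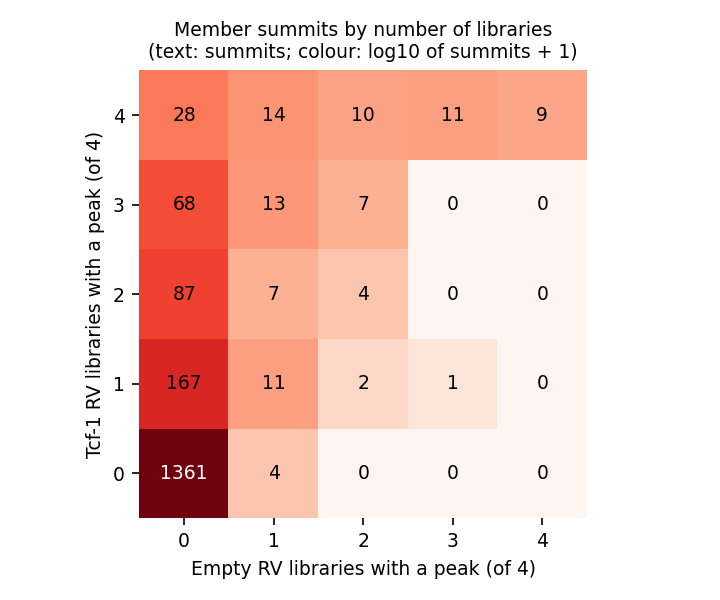
Number of members by how many of 4 Empty RV libraries (horizontal axis) and how many of 4 Tcf-1 RV libraries (vertical axis) had a peak at the summit; the number in each square is the count and the colour its log10. The left column holds the 1711 members with no Empty RV peak, of which 1361 had no Tcf-1 RV peak either.

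The strictest pattern, a peak in 4 of 4 Tcf-1 RV and 0 of 4 Empty RV libraries, was met by 28 members and is called gained. That is 1.55% of members, near the 1.85% of all summits, so the count says nothing particular to members. It was held down by 1 library: without Tcf-1 RV replicate 3 the count was 93. None was lost by the reverse pattern, which 0.00247% of all summits met. The gained member with the highest score (165) lay 36.8 kb from Hoxb1, a homeobox gene of the hindbrain, at chromosome 11, position 96405034, in a shared island of 4.40 kb. Others lay in Stk31 (score 140, chromosome 6, position 49411062), 19.1 kb from Zbtb8a (128) and 22.6 kb from Tspan9, a tetraspanin gene (110). None of these 4 had a peak in any DP library.

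Lower in score were gained members 0.176 kb from Mettl21e (84), 8.27 kb from Gpnmb, a transmembrane glycoprotein gene (68.7), and 14.3 kb from Gas7, a growth arrest gene (64.2). Members in Art3 (57), in Moxd1 (48.2) and 10.9 kb from Rcl1 (52) were gained too. Among the gained summits with a score under 25 were those in Stra6, the cell surface receptor for retinol uptake (17.6), in Adora2a, an adenosine receptor gene (13.5), and in Camta1 (12.8). Of the 28, 27 lay more than 1 kb from the nearest gene end. A gained member also lay inside Tcf7 itself, 1.23 kb from its end at chromosome 11, position 52282156 (score 36). As the Tcf-1 RV may carry sequence of this gene, a peak from the gene and one from the vector cannot be told apart there, and without the summits in or within 10 kb of Tcf7 the count was 27.

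**Figure D3:**
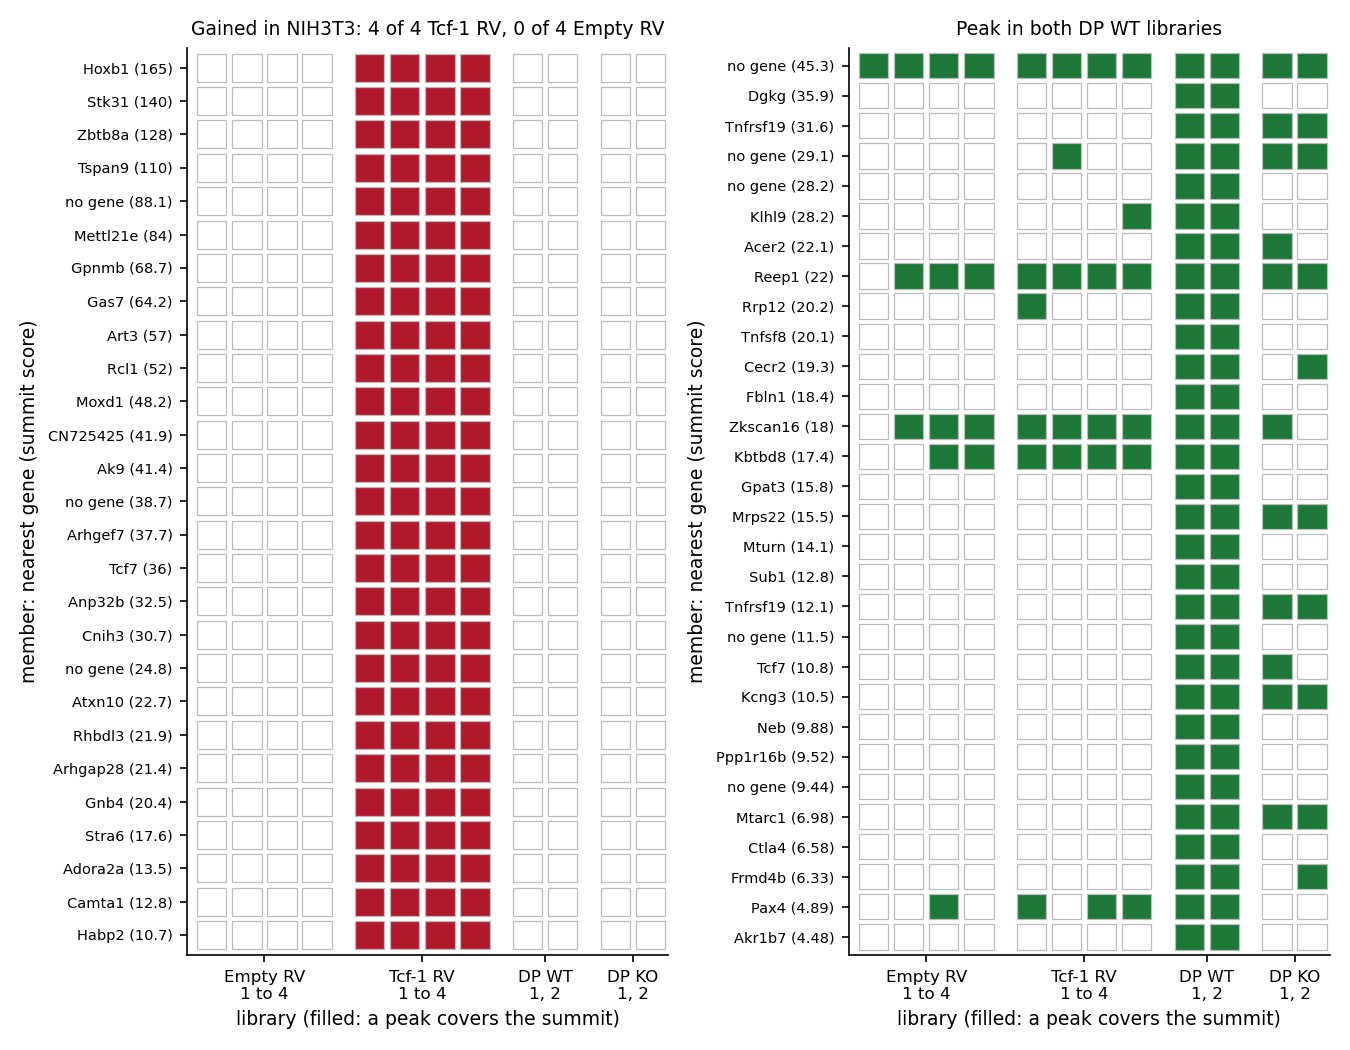
Presence of a peak (filled square) at each member (rows, labelled by nearest gene and summit score) in 12 ATAC-seq libraries (columns), for 27 of the 28 gained in NIH3T3 (left) and the 30 with a peak in both DP WT libraries (right). No gained member shown has a filled square in DP thymocytes, where 2.49% of all members have a WT peak. On the right, 22 of the 30 have no filled square in NIH3T3, beside 75.4% of all members.

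Opening at members went with the score of the Tcf-1 summit, as it did in the other classes. The score of a summit, whose scale the sources do not state, had a median of 14.1 at members (range 0.204 to 195), against 17 at summits in neither mark and 18 in H3K9me3 islands. From the lowest to the highest quartile of member score, the mean share with a peak in Tcf-1 RV was 5.04% ± 2.74, 7.49% ± 4.33, 13.7% ± 4.98 and 25.3% ± 10.8 (SD, n = 4). In Empty RV it was 1.39% ± 1.03, 1.48% ± 1.53, 3.25% ± 2.32 and 3.17% ± 2.35. Each of the 4 Tcf-1 RV libraries had its highest share in the highest quartile, with 9.56% in the lowest library and 34.2% in the highest. Gained members numbered 0, 3, 6 and 19 in the 4 quartiles. Within the same range of score the classes stayed apart. In the highest quartile of all summits (33.4 and above) the Tcf-1 RV share was 33% ± 14.2 at 287 members. It was 61.1% ± 10.2 at 8979 summits in neither mark. From the lowest to the highest of these quartiles it rose from 25.5% to 61.1% in neither mark and from 16.5% to 59.6% in H3K9me3 islands. The Empty RV share rose there too, from 20.0% to 35.7% and from 13.4% to 33.7%. These trends are given as descriptions, since summits in a library share its depth.

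**Figure D4:**
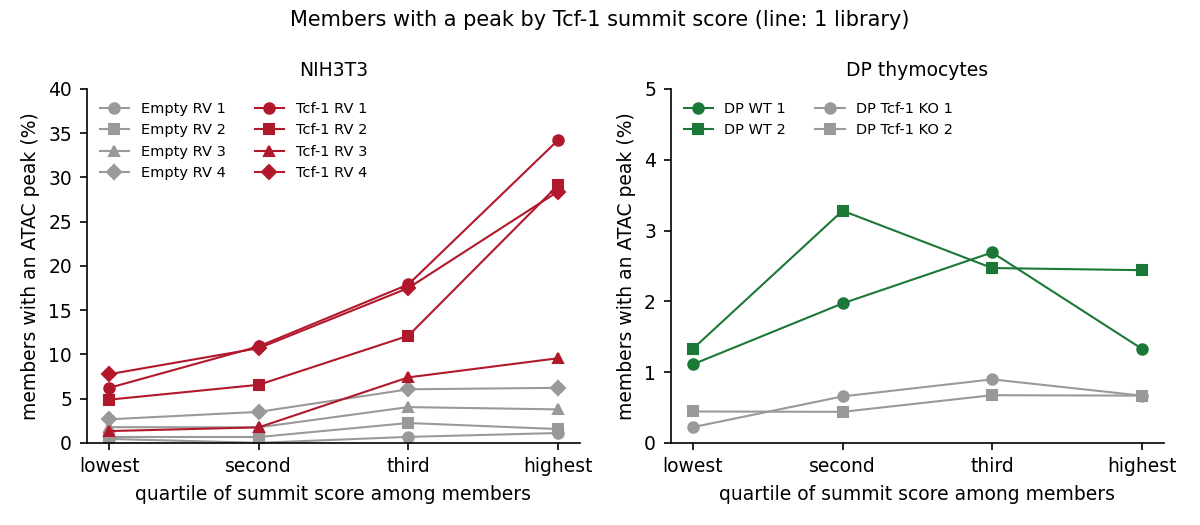
Percent of members with a peak (vertical axis) by quartile of summit score among members (horizontal axis), with 1 line per library, for NIH3T3 (left) and DP thymocytes (right). The Tcf-1 RV lines reach 9.56% to 34.2% in the highest quartile, while the Empty RV lines stay at or below 6.22% and the DP lines show no such climb.

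Members in wider island stretches were open more often, in both arms. Members lay in 1645 stretches shared by the islands of both replicates, of which 1502 held 1 member, 129 held 2 and 14 held 3 or more. The stretch at a member had a median width of 6.6 kb (quartiles 3.80 and 12.8 kb), and the median member lay 1346 bp from its edge. The median fold of ChIP over control of the islands, the authors' own value, was 2.14 at members in both replicates, against 2.02 and 2.03 over all islands. In 3 groups of near equal size from low to high island fold, the Tcf-1 RV share was 13.6% ± 5.72, 12.7% ± 5.56 and 12.3% ± 5.40 (SD, n = 4). In 3 such groups from narrow to wide stretches it was 10.5% ± 4.90, 13.1% ± 5.68 and 15.1% ± 6.14, and the Empty RV share was 1.19% ± 1.18, 2.29% ± 1.97 and 3.48% ± 2.28. The share was higher at each step of width in all 8 NIH3T3 libraries. Members under 500 bp from the edge gave 13.5% ± 5.66 and those 2000 bp or more inside gave 14.4% ± 5.79 in Tcf-1 RV, and the second share was the higher one in 3 of the 4 libraries. At the boundary of the rule, 171 members within 200 bp of the edge had peaks at 3.51% ± 2.57 in Empty RV and 16.1% ± 6.34 in Tcf-1 RV. Just outside it, 1190 summits in an island of 1 replicate only had 5.02% ± 3.31 and 19.1% ± 6.66.

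The members with the highest scores were not all opened. Among the 10 highest scores, 4.08 kb from Dclre1b, a DNA repair nuclease gene, a summit of score 166 had a peak in 3 of 4 Tcf-1 RV and no Empty RV library. The same pattern held 12.5 kb from Acp6 (score 177) and 14 kb from Cd70, the gene for the ligand of CD27 (150), all missing in Tcf-1 RV replicate 3. The member 7.68 kb from Sumo2 (144) had a peak in 2 Tcf-1 RV libraries. In Cep41, a centrosome protein gene, the summit of score 136 had no peak in any of the 12 libraries. The top 2 scores were 195, at 35.4 kb from the zinc finger gene Bnc2, and 190, at 47.1 kb from A430057M04Rik. Both of these summits were open in all 8 NIH3T3 libraries, those with Empty RV included. Other members open in all 8 were 9.15 kb from Lep, the leptin gene (21.2), 10.9 kb from Hoxb9 (22), 17.4 kb from Exoc6b (37.9), in Pdzd2 (20.0), in Camta1 (7.72) and in Helt, a neural basic helix-loop-helix gene (5.50).

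Members were spread thinly over many genes. A protein-coding gene lay within 50 kb of 1485 members, which named 1179 genes, or 5.39% of the 21887 in the table, of which 939 had 1 member, 193 had 2, 32 had 3 and 15 had 4 or more. Camta1, a transcription activator gene, had the most with 6 members (scores 6.58 to 17.4), of which 1 was gained, 1 was open in all 8 NIH3T3 libraries and 4 had no NIH3T3 peak. Astn2, a neuronal membrane protein gene, and Cfap77 had 5 each, and in each of these genes 1 member had a Tcf-1 RV peak. In Reep1, which shapes the endoplasmic reticulum, all 4 members had a Tcf-1 RV peak. The summit of Reep1 at chromosome 6, position 71757457 was open in 3 Empty RV, all Tcf-1 RV and all DP libraries, and that at position 71745856 in Tcf-1 RV replicates 1, 2 and 4 only. The one at position 71804169 was open in Empty RV replicates 2, 3 and 4 but in Tcf-1 RV replicate 4 only. Near Rybp, the gene of a Polycomb repressive complex PRC1 partner, 4 members scored 6.81 to 63, and 3 of them had a peak in 1 Tcf-1 RV library each. Zdhhc14, a palmitoyltransferase gene, had 4 inside it, of which 2 were open in 3 Tcf-1 RV libraries. The 4 members in Lrmda had no peak in any library.

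Few members lay at gene ends. Within 1 kb of a start or end of a protein-coding gene there were 52 (2.88%). The shares were 9.64% for summits in neither mark and 2.10% for those in H3K9me3 islands. Inside a protein-coding gene lay 616 members (34.1%), against 52.2% in neither mark and 36.1% in H3K9me3 islands. The 52 had peaks at 6.25% ± 3.28 in Empty RV and 17.3% ± 4.71 in Tcf-1 RV, and the 1752 others at 2.2% ± 1.76 and 12.7% ± 5.59 (SD, n = 4). Chromosome 1 held 248 members, chromosome 6 held 215 and chromosome X none, although 554 summits lay on X, which holds 0.139% of the shared H3K27me3 length. Per megabase of that length, chromosomes 19, 6, 3 and 1 held 11.5, 10.7, 10.6 and 10.6 members, and chromosome 9 held 4.23.

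Members lay at genes of several developmental families, and of the 10 at Hox genes 6 had a peak in a Tcf-1 RV library, beside 369 of all 1485 members with a gene. Of those 6, 3 had no Empty RV peak, and the other 3, at Hoxb9, Hoxc13 and Hoxc6, had one. Among all 1485 members with a gene, 291 had a Tcf-1 RV peak and no Empty RV peak. The lists were chosen with earlier results of these data known, and no test was made of them. Of 39 Hox genes, 7 (17.9%) had a member, beside 5.39% of all protein-coding genes. Any Tcf-1 summit lay at 13 of the 39 Hox genes and at 9828 of all 21887 protein-coding genes. Members were chosen by H3K27me3, which marks silent developmental genes, so such shares are not independent of the rule. The 10 members at Hox genes included the gained one near Hoxb1 and a second of score 11.4 near Hoxb1, open in Tcf-1 RV replicate 1 only. In Hoxc6 the summit of score 19.3 was open in Empty RV replicates 2, 3 and 4 and all Tcf-1 RV libraries and that of score 14.8 in none. Both lay in a stretch of 119 kb over the Hoxc cluster, the widest to hold a member. Of 73 other developmental transcription factor genes, 7 (9.59%) had members. The one 13.9 kb from Tbx4, a limb T-box gene (82.3), and the one 23.6 kb from Lhx2 (44.5) had a peak in 1 Tcf-1 RV library each. Those near T, the Brachyury gene (36.1), and at Pax8 (29.8 and 15.6) had none in any library.

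Genes of the Wnt pathway, through which Tcf factors act, were among them. Of 49 genes of ligands, receptors and inhibitors, 7 (14.3%) had a member. In Rnf43, the ubiquitin ligase that removes Wnt receptors, the summit of score 71.8 had a peak in Tcf-1 RV replicate 1 only, and that of score 12.2 in 1 DP WT library. Members at the ligand genes Wnt5b (35, 0.630 kb from its end) and Wnt10a (26.6) and at Wif1, a secreted inhibitor gene (12.8), had no peak in any library. Of 19 Wnt target genes, Tcf7, Nkd1 and Tcf7l2 had members. In Nkd1, a feedback inhibitor gene, the summit of score 30 was open in Empty RV replicate 4 and in all 4 Tcf-1 RV libraries, and that of score 28.4 in none. The member 24.1 kb from Tcf7l2 (15.5) was never open. Of 39 Hedgehog, BMP and FGF genes only Bmp7 had one (31.8), with no peak.

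T cell genes also held members. Of 33 T cell receptor and DP genes, 6 (18.2%) had 1 each. The one 39.2 kb from Cxcr4, the chemokine receptor of thymocytes (75.6), had peaks in Tcf-1 RV replicates 1 and 4. Those in Cd69, an early activation antigen gene (38.9), and in Cd6, a T cell surface glycoprotein gene (15.2), had a peak in Tcf-1 RV replicate 1. The one 0.176 kb from Cd1d1, which presents lipids (12.1), had none. None of these 6 was open in both DP WT libraries. Among 28 T lineage transcription factors, Tcf7, Myb and Tox2 had members. The Tcf7 summit 38.4 kb away at position 52321796 (53.4) had peaks in Tcf-1 RV replicates 1, 2 and 4, and the one 31.1 kb away at position 52314485 (10.8) had none in NIH3T3 but was open in both DP WT and KO replicate 1. Members near Myb (8.10) and Tox2 (7.72) were closed in every library.

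Other lists gave 8 of 46 neuronal channel and receptor genes (17.4%), among them Adra1a (32.5), Scn2a (31.6) and Chrnb2 (17.7), these 3 closed in the 12 libraries. Of 24 cadherin and epithelial genes 4 had a member. That 12.4 kb from Cldn1, a tight junction gene (51.5), was open in Tcf-1 RV replicates 1, 2 and 4, and those in the cadherin genes Cdh5, Cdh22 and Cdh4 in no library. Among Polycomb genes, Pcgf5 (52.5) and Cbx6 (8.30) had a closed member each. Of 24 fibroblast genes, Twist2 had 2 closed members (25.6 and 11.6) and Col1a2 had 1 (9.48), with a peak in replicate 4 of both arms. The B cell, myeloid, erythroid, thymic epithelium and housekeeping lists held no member, out of 15, 15, 11, 10 and 15 genes. Of these, 6, 5, 1, 6 and 9 genes had any Tcf-1 summit. As 5.39% of all protein-coding genes had a member, lists this short can hold none, and they set no contrast with the other lists.

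In DP thymocytes few members were open, and the counts were lower in both KO than in both WT libraries. A peak covered 32 members (1.77%) and 43 (2.38%) in the WT libraries and 11 (0.610%) and 10 (0.554%) in the KO libraries. The arms did not overlap, with means of 2.08% ± 0.431 and 0.582% ± 0.0392 (SD, n = 2 each) and a difference of 1.5 points. With 2 against 2 libraries the exact permutation p cannot go below 0.333, which it was before and after adjustment. Summits in neither mark went from 7.35% ± 0.963 in WT to 4.60% ± 0.253 in KO. The log2 odds ratio of members against them was -1.96 and -1.82 in WT and -2.85 and -3.10 in KO, a difference of 1.08 on the log2 scale (exact permutation p = 0.333). Among summits more than 1 kb from gene ends, a choice made after seeing the data, that difference was 0.34 on the log2 scale. Summits in H3K9me3 islands lay closer to members, with 2.31% ± 0.243 in WT and 0.917% ± 0.0540 in KO. The log2 odds ratio of members against these was -0.27 and -0.06 in WT and -0.50 and -0.75 in KO. Few peaks and lower counts in KO were thus not particular to members.

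The KO lists were shorter (11171 and 12209 peaks against 23249 and 30985). With lists cut to an equal number of widest peaks, the WT minus KO difference was 0.166 points (exact permutation p = 0.333, 2 libraries each), with 0.693% in WT and 0.527% in KO. Peaks lay at an end of 10 and 12 of 13 DP marker genes in the WT libraries, but of 1 and 6 in the KO libraries, and of 0 or 1 in NIH3T3. Of 12 fibroblast marker genes the NIH3T3 libraries had a peak at 3 to 9, WT at 1 and 4, and KO at 0.

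A peak in both WT libraries was found at 30 members, 1.66% of them, against 6.03% of all summits and 2.06% in H3K9me3 islands. Of the 30, 17 (56.7%) had no peak in either KO library, 5 had one in 1 KO library and 8 in both. Over all 40562 summits 1.64% were lost in this way, and the share of lost among those open in both WT libraries was 26.3% for summits in neither mark. Away from gene ends the shares lay closer: 29 of the 30 members lay more than 1 kb from gene ends and 17 of these (58.6%) were lost, against 454 of 863 such summits in neither mark (52.6%) and 27 of 37 in H3K9me3 islands (73%). Among those with no NIH3T3 peak the order was the other way, with 13 of 22 members lost (59.1%) and 123 of 163 summits in neither mark (75.5%). None of these differences was tested. The count was 30 without WT replicate 1, when 1 WT library decided. No member was gained in KO, a pattern met by 0.00986% of all summits.

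Among the 17 were summits 26.1 kb from Ctla4, the gene of an inhibitory T cell receptor (score 6.58), in Tnfsf8, which encodes the CD30 ligand (20.1), and in Dgkg, a diacylglycerol kinase gene (35.9). Others were in Fbln1 (18.4), Ppp1r16b (9.52) and Neb (9.88), and 4.99 kb from Klhl9 (28.2). The 8 kept in both KO libraries included the 2 members of Tnfrsf19, a tumour necrosis factor receptor family gene (31.6 and 12.1), and those in Mtarc1 (6.98) and Reep1 (22). Of the 30, 22 had no peak in any NIH3T3 library, and Tcf-1 summits were thus called there in fibroblasts without an ATAC peak.

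Opening in Tcf-1 RV fibroblasts and opening in thymocytes met at few members. Of the 350 opened in Tcf-1 RV, 6 (1.71%) had a peak in a WT library, against 32 of the 1361 never open in NIH3T3 (2.35%). For summits in neither mark the same shares were 2.47% and 1.68%. Of the 93 members with an Empty RV peak, 7 (7.53%) had a WT peak, beside 45 of all 1804 members (2.49%). Of the 28 gained none had one, and 28 are too few to set this apart from the share of all members. These shares were not tested against each other.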

How the data were processed

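Per the labels, the authors deposited 1 peak list per ATAC-seq library, 1 SICER island list per histone library and 1 pooled Tcf-1 summit list, whose label names an irreproducible discovery rate of 0.02. The deposited ATAC lists hold positions only, so depth is unknown. The deposited island files hold read counts of ChIP and control, a fold (ratio), a p-value and an adjusted p-value (all at or below 0.00997), and the deposited summit file a score of unstated scale. Per the submitters' processing notes, Bowtie2 2.2.9, STAR 2.5, Picard and MACS2 are among the tools and GRCm38 and mm10 among the builds, and coordinates are GRCm38, counted from 1. A library was open at a summit if a peak covered the base. Shares and log2 odds ratios (0.5 added to each cell) were compared over libraries with exact permutation tests (Python 3.11.15, numpy 2.4.6), adjusted by Benjamini-Hochberg. No label states separate animals or cultures for the replicates, and p-values then measure only spread among these libraries, which may be technical. Genes are the nearest RefSeq protein-coding genes (GRCm38.p6) within 50 kb. Named genes were those with the most members, the highest scores, gained, open in both WT or open in all 8 NIH3T3 libraries, and up to 4 per fixed list. Members and lists were chosen with earlier results of these data known. The scripts were tested on simulated data. Of 321 samples, 16 had files of their own, and the others were not analysed here. Some named items are not reported here.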

Additional observations from a re-analysis of the deposited data

How the results depend on the processing

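No difference changed direction under any alternative run, and the count of lost members stayed at 0 in all. The differences in share, in log2 odds ratio against unmarked and against H3K9me3 summits, and per 10000 peaks (10.6 points, 1.96, 1.94 and 38.7) lost their call in 3 kinds of setting besides leaving out a library. With a peak within 250 bp they were 11.2, 1.82, 1.83 and 40.6 (adjusted exact permutation p 0.0857 for the first and 0.0571 for the others). Within day tag 2 they were 14.3, 2.83, 2.81 and 54.5, and within day tag 4 6.82, 1.09, 1.06 and 22.9 (p 0.333, the smallest possible). With the replicate number as a block (exact sign-flip test over 4 same-numbered pairs) the values stayed at 10.6, 1.96, 1.94 and 38.7 with p 0.125, the smallest possible, and adjusted 0.188; DP values stayed at 1.5 and 1.08. Same-numbered libraries correlated at 0.109, 0.115, 0.0689 and 0.271 over summits in NIH3T3 and at 0.0274 in DP, so not every pair passed 0.1 and the numbers were not taken as pairs. Of the Empty RV libraries, 3 correlated best with their own number, and replicate 3 with Tcf-1 RV replicate 4 (0.0749). Leaving out 1 library gave 9.09 to 13.2 points, 1.67 to 2.24, 1.63 to 2.2 and 32.7 to 46.4 in NIH3T3, and 1.19 to 1.80 points and 0.96 to 1.21 in DP. The count of gained members ranged from 28 to 93 with a library left out. It was 110 under the replicate block, when 3 of 4 pairs going one way and none the other sufficed, 179 within day tag 2, 63 with an island in 1 replicate, 13 with the stronger islands, 16 at 1000 bp or more inside, and 7 with equal numbers of widest peaks. The count lost in KO ranged from 19 to 30 with a library left out, and was 30 with a peak within 250 bp, 30 with an island in 1 replicate, 9 with the stronger islands, 7 with scores at or above the median, and 4 with equal numbers of widest peaks, where 2 were gained in KO. The members numbered 2994 with an island in 1 replicate, 920 with the stronger islands, 1096 at 1000 bp inside and 752 with the higher scores. Genes with a member numbered 787 within 10 kb.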
